A study of Mus musculus with 6 samples.

Results

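Retained intron events are places in a gene where some transcripts keep an intron (the retained form) and others remove it (the spliced form). Among the listed pairs of forms, 8281 of 19513 retained intron pairs were described here, 6728 for single introns and 1553 for runs of introns kept together. A pair was taken where its forms together averaged at least 1 FPKM (fragments per kilobase of length, scaled to a library's mapped reads) over 6 libraries and both forms were above 0 in the same library at least once. The level limit used the mean over both treatments and not their difference. The second condition was met only in DHT libraries by 1841 members and only in oil libraries by 1979. Retention is the retained form's FPKM as a percentage of both forms. The same rule kept 23866 of 77959 pairs of all event types. The members lay in 3675 assembled loci with 3666 gene symbols and at 7989 distinct positions, and 1580 of them (19.1%) shared their retained-form values with another member of their locus.

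The RNA came from tissue labelled hippocampus of 14-month-old male C57BL/6 mice. Of the 6 libraries, 3 were from mice given dihydrotestosterone (DHT), an androgen that aromatase does not convert to oestrogen, under the skin once a day for 14 days. The other 3 were from mice given corn oil, the vehicle, on the same schedule. The label descriptions call the DHT group by the word testosterone, and they do not say whether a library is 1 animal, so p-values measure only the spread between libraries. Mapped reads, worked out from the circular RNA scores, numbered 143 to 177 M (mega) per library. Of 9 striatal neuron markers, 8 averaged over 5 FPKM, with summed levels of 185 to 349 FPKM under DHT, against 266 to 297 FPKM under oil, and Drd1 was near 0. Of 10 hippocampal neuron markers, 4 averaged over 1 FPKM, with sums of 39.3 to 51.9 FPKM under DHT, against 31.1 to 48.9 FPKM under oil, and Neurod6, Neurod2, Dsp and Lct were near 0. The part of tissue makeup in the results was not tested, and in bulk tissue fewer cells of a type and less RNA per cell cannot be told apart.

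An intron is removed when the spliceosome recognises the GT at its 5′ end and the AG at its 3′ end. An intron that stays in the transcript often brings a premature stop codon, and such RNA is either held in the nucleus or degraded by nonsense-mediated decay. In neurons, transcripts with a kept intron can wait in the nucleus and be spliced after a stimulus, and several splicing factors limit their own levels through retained introns.

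Sequences of 3 kinds are shown, so that the intron itself can be seen beside its values. All are from RefSeq for GRCm38.p6, 5′ to 3′, and a splice site could be read only where it fell inside a RefSeq promoter window. Every 5′ site read that way was GT (19 of 19) and every 3′ site was AG (18 of 18). Whole introns come first, with their first and last pair of bases in capitals. The Dennd6b intron (chr15:89185465-89185537, minus strand) is also the hairpin of Mir6958, printed as RNA. The Ddx41 intron is chr13:55535805-55535885 on the minus strand, and the Evl intron is chr12:108683262-108683347 on the plus strand.
Dennd6b intron: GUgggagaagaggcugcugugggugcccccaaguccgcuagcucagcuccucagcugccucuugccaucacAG
Ddx41 intron: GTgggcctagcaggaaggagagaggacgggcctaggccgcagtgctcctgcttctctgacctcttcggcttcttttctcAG
Evl intron: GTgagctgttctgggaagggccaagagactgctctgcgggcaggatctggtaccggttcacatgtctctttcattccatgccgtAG

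The Ddx41 intron, 81 nt long in the gene of a DEAD-box helicase, was nearly always removed. Its retained form stood at 0.0307, 0.0136 and 0.0333 FPKM under DHT, against 0.0163, 0.0155 and 0.0243 FPKM under oil. The spliced form stood at 6.22, 5.59 and 3.88 FPKM under DHT, against 2.99, 4.23 and 4.08 FPKM under oil. Mean retention over the 6 libraries was therefore 0.514%. The Evl intron, 86 nt long in the gene of an actin regulator, was kept far more often, with a mean retention of 47.6%. Its retained form held 0.33, 0.755 and 0.3 FPKM under DHT, against 0.697, 0.289 and 0.528 FPKM under oil. The spliced form spread from 0.114 to 3.96 FPKM in DHT libraries and from 0.133 to 2.13 FPKM under oil, so the ratio varied mostly with that form. The Dennd6b intron of 73 nt averaged 10.7% retention, with 2.01, 0.000211 and 1.37 FPKM of the retained form under DHT, against 1.28, 0.377 and 0.000303 FPKM under oil. Its groups overlapped, and limma gave a Benjamini-Hochberg adjusted p of 0.971.

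Splice sites of the 4 most abundant pairs that could be read in this way are shown next, with 8 exonic and 20 intronic bases and the GT or AG in capitals. The Mrtfb site is chr16:13405400-13405427 (plus), the Smarcd1 site chr15:99703853-99703880 (plus), the Tnk2 site chr16:32668201-32668228 (plus) and the Ttc7b site chr12:100495433-100495460 (minus).
Mrtfb 5′ site: ccagcaagGTaagtcataatgacaacag
Smarcd1 5′ site: ccatcaagGTaacaggacagtaccaggc
Tnk2 3′ site: ttctggctgctttcaaacAGgtgttcag
Ttc7b 3′ site: ttctgtctttttccttctAGtcagaatt

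These pairs show a common pattern, with a spliced form in every library and a retained form listed at 0 in most. Mrtfb, which encodes a coactivator of serum response factor, had 10.2, 0 and 0 FPKM of the retained form under DHT, against 0, 1.99 and 0 FPKM under oil. Smarcd1, a chromatin remodelling subunit, had a retained form above 0 in 1 oil library, at 2.56 FPKM. The same held for Tnk2, a tyrosine kinase gene, at 1.63 FPKM. Ttc7b, which acts in a lipid kinase complex, had 2.66, 0 and 1.21 FPKM under oil and was listed at 0 in all 3 DHT libraries. The mean retention of such a pair thus rested on 1 or 2 libraries.

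Hairpins of 23 miRNA genes lay inside 31 of the pairs, and all 23 were on the strand of their intron. In 9 of them the hairpin ended at the last base of the intron, as in mirtrons and tailed mirtrons, where the spliceosome makes a hairpin end in place of Drosha. Their 3p arms are printed with the seed (bases 2 to 8) in capitals. In 7 of 9 arms the last base was also the last base of the intron, and in the other 2 it lay 1 base before. In the order printed, the arms lie at chr11:101030388-101030409, chr11:107637759-107637779, chr5:144896732-144896753, chr12:112920483-112920503, chr15:78891891-78891912, chr15:89185465-89185487, chr2:31612462-31612483, chr7:44470391-44470411 and chr11:70438297-70438318. Those in Smurf1, Jag2 and Dennd6b are on the minus strand and the others on the plus strand.
mmu-miR-6928-3p (Atp6v0a1): aAGCUGUUccuguacucuccag
mmu-miR-6932-3p (Helz): uCUGUUCUgcuuccucugcag
mmu-miR-7039-3p (Smurf1): cCUGUUCUgcccucccuuccag
mmu-miR-6941-3p (Jag2): cUAACUCGgcugcucccaaag
mmu-miR-6955-3p (Gga1): aCACCUGUcuccuuugcccaca
mmu-miR-6958-3p (Dennd6b): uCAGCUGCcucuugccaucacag
mmu-miR-6998-3p (Fubp3): aGAGCUGCucugugcccacaca
mmu-miR-7052-3p (Josd2): gCUCUGCCcccuccuucccag
mmu-miR-7115-3p (Arrb2): aCUUGGUCcccugcccccacag

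The arms of miR-6932-3p and miR-7039-3p share the seed CUGUUCU, and the other seeds differ from each other. Mature miRNA was not measured by these files, so the values below are those of the host introns. The single-intron pair of Atp6v0a1, a proton pump subunit, held the most retained form among these hosts, at 8.88, 0 and 0 FPKM under DHT, against 0, 12.1 and 0 FPKM under oil. The Arrb2 pair, in the gene of a beta-arrestin, had the retained form in all libraries at 0.0902, 0.137 and 0.176 FPKM under DHT, against 0.436, 0.212 and 0.0945 FPKM under oil. The other hosts had it at 0 in at least 1 library or, in Dennd6b, near 0. Over the 31 pairs the median retention was 7.77%, and the smallest adjusted p was 0.911 in the limma fit. Of the 31 pairs 1 had an unadjusted p under 0.05, the one holding Mir3082, beside 4.79% of all pairs.

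Most pairs were spliced in most libraries. The median of mean retention was 4.96%, with quartiles of 2.12% and 12.8%. Within single libraries the median was far lower, at 0.00774, 0.00736 and 0% under DHT, against 0.0363, 0.0082 and 0.0121% under oil. The mean of a pair can thus rest on few libraries. Mean retention was under 1% in 624 pairs, 1 to 10% in 5109, 10 to 50% in 1928, 50 to 90% in 367 and at least 90% in 253. Retained forms were also detected irregularly. They were above 0 in 1 library in 2877 pairs and in all 6 libraries in 2025 pairs, while the spliced form was above 0 in all 6 in 7704. In a given library, 47.6 to 52.0% of members had the retained form listed at 0. A value of 0 can be a failed estimate in such files, and the depth behind one pair is unknown because no counts are given per event.

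**Figure D1:**
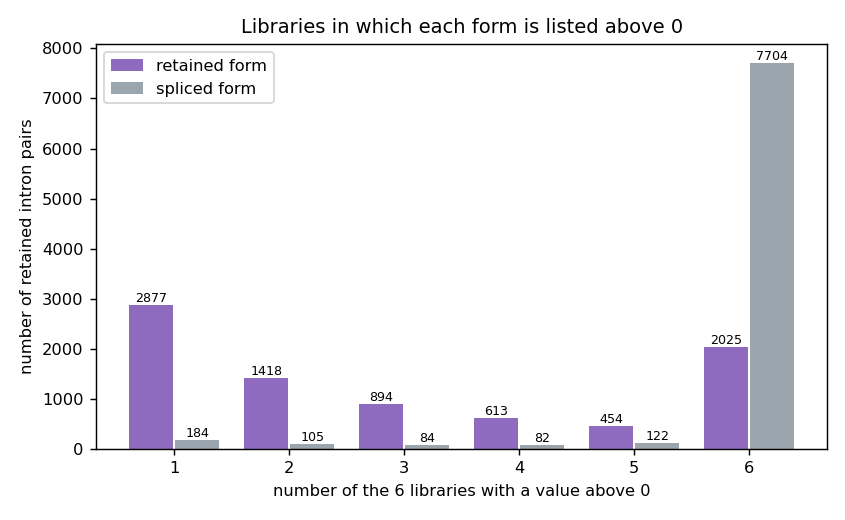
Number of retained intron pairs (vertical axis) by the number of libraries, of 6, in which the retained form (purple) or the spliced form (grey) was above 0. The retained form was above 0 in 1 library in 2877 pairs, and the spliced form was above 0 in all 6 libraries in 7704 pairs.

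Both forms were above 0 in every library in 1747 pairs, with a median retention of 8.22% and quartiles of 1.68% and 24.9%. Both reached 0.1 FPKM in every library in 561. At the other end, 2726 pairs had a mean retained form under 0.1 FPKM. Pairs with both forms in DHT libraries only numbered 1841, and those with both in oil libraries only numbered 1979. The median SD of retention over replicates was 8.87 percentage points at 1 to 2 FPKM and 2.21 points at 10 FPKM and over. The median retention moved with it, at 8.17% and 2.47%.

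Segments listed as short introns had higher retention. Of the 8281 members, 20 were shorter than 50 nt, and whether the short segments are annotated introns or parts of exons was not tested. With 1 pair per intron, the median retention was 7.11% for introns under 100 nt and 4.003% for those of 3000 nt and over. The share of introns with mean retention over 50% was 17.6% under 100 nt and 2.2% at 3000 nt and over. Short introns also had the retained form in all 6 libraries more often, in 64.9% of those under 100 nt and 3.75% of those of 3000 nt and over. Among the 253 pairs with at least 90% retention, the median length was 189 nt and 46.6% had a length that is a multiple of 3, against 33.6% of the 5109 pairs at 1 to 10%. These differences are descriptions without a test, since pairs of a locus share reads.

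**Figure D2:**
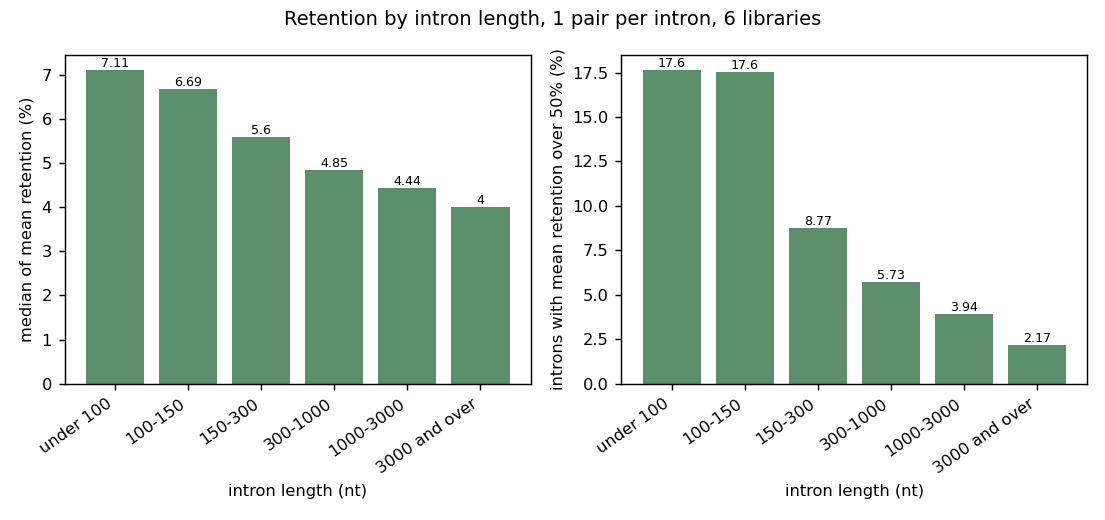
Retention by intron length in nt (horizontal axes), with 1 pair per intron: left, the median of mean retention over 6 libraries in percent; right, the percentage of introns with mean retention over 50%. Bars fall with length, to 4.003% and 2.2% at 3000 nt and over.

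By position in the gene, the median retention was 4.63% in the first 20% of the gene's length and 4.73% in the last 20%. The 37 pairs in lncRNA hosts had a median of 24.2%, and the 7848 in protein-coding hosts 4.92%. On the X chromosome, 209 pairs had a median of 7.17%, against 4.92% for 8054 on autosomes. A circular RNA of at least 2 reads spanned 13.5% of retained intron pairs and 26.7% of cassette exon pairs. The median retention was 5.35% with a spanning circle and 4.91% without. Circles lay inside 13 pairs, and 2 of the 6 circles had both ends at the intron's ends, in Prpf39 and in Zfp68. Both carry the circle type exon, so neither is listed as an intronic circle. The Zfp68 circle had 2, 2 and 3 reads under DHT, against 6, 3 and 4 reads under oil.

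The design sets DHT against oil, and retention was compared on that contrast. No retained intron pair passed the test. limma on log2((retained + 0.5)/(spliced + 0.5)) over all 23866 pairs called 0 of 8281 members at a Benjamini-Hochberg adjusted p under 0.05, and 0% of all pairs were called. The smallest adjusted p of a member was 0.0894. At an unadjusted p under 0.05 there were 389 members (4.70%) against 4.79% of all pairs, so their share was near the background. Of these, 147 were higher in DHT (1.78%, against 2.25% of all pairs) and 242 were lower (2.92%, against 2.53%). The log2 change was above 0 in 43.6% of members and 48.6% of all pairs, with medians of -0.09 and -0.02.

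Retention in DHT and oil libraries did not overlap in 163 members with DHT above oil (1.97%, against 2.78% of all pairs) and in 244 with DHT below oil (2.95%, against 3.13% of all pairs). In 89 of these the retained form was listed at 0 in every library of 1 group. Those pairs met the rule of both forms above 0 only through the other group. The retained share of all members' FPKM was 11.2, 11.6 and 11.5% under DHT, against 11.7, 12.4 and 12.4% under oil. These did not overlap, and averaged 11.4 ± 0.187% under DHT, against 12.2 ± 0.421% under oil (SD, n = 3 each), a description with no test. Sums of the retained form were alike, at 5065, 5259 and 5206 FPKM under DHT, against 5069, 5147 and 5177 FPKM under oil. Sums of the spliced form were 40011, 40075 and 40077 FPKM under DHT, against 38328, 36374 and 36505 FPKM under oil, and the groups did not overlap. This was not particular to retained introns, since both forms of cassette exon pairs also summed higher under DHT without overlap. Their larger form summed to 49155 to 49759 FPKM under DHT, against 45684 to 47630 FPKM under oil. The smaller form summed to 37881 to 38487 FPKM under DHT, against 35131 to 35955 FPKM under oil. Among the 1747 pairs with both forms in every library, the shares overlapped, at 11.97, 11.3 and 11.4% under DHT, against 11.3, 11.8 and 13.0% under oil. In that set the 2 group means differed by a median of 2.58 points.

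**Figure D3:**
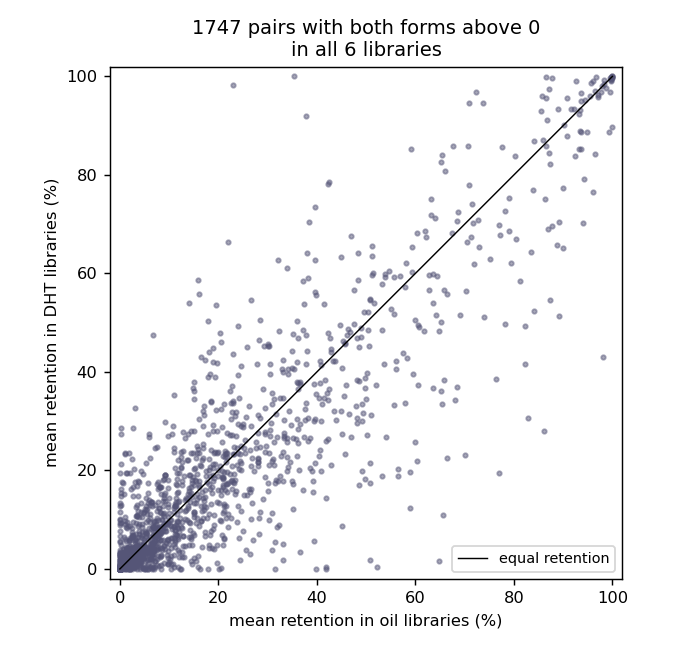
Mean retention in 3 DHT libraries (vertical axis, %) against mean retention in 3 oil libraries (horizontal axis, %) for the 1747 pairs with both forms above 0 in every library, with the line of equal retention. DHT was above oil in 806 of 1747 pairs, and 129 differed by over 20 percentage points.

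Of the 8 pairs with the smallest p among those with DHT above oil, Skiv2l came first. It encodes the helicase of the SKI complex, which feeds RNA to the cytoplasmic exosome. Its intron of 67 nt (chr17:34845101-34845167, minus strand, GRCm38) had 3.78, 3.09 and 3.23 FPKM of the retained form under DHT, against 0.84, 0.839 and 1.21 FPKM under oil. The spliced form ran the other way, at 0.198, 0.00388 and 0.00598 FPKM under DHT, against 3.69, 2.75 and 3.28 FPKM under oil. Retention was 95.0, 99.9 and 99.8% under DHT, against 18.6, 23.4 and 26.9% under oil, with no overlap. The log2 change of the ratio was 4.13 ± 0.335 (SE), at a limma adjusted p of 0.0894. With no minimum level for the fit the adjusted p was 0.0314, which passes, and over all alternatives it ran from 0.0314 to 0.299. The total of both forms had a log2 change of -0.26 (adjusted p 0.811).

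Son, a speckle protein that supports splicing of weak introns, carried an intron of 112 nt (chr16:91655228-91655339, plus). Its retained form was 22.1, 23.4 and 25.1 FPKM under DHT, against 23.0, 16.5 and 20.4 FPKM under oil. Its spliced form was listed at 0 in the DHT libraries and at 3.19, 4.53 and 3.45 FPKM under oil. The pair thus met the rule of both forms above 0 only through oil libraries. The values of the groups overlapped in the retained form and lay apart in the minor spliced form, and the adjusted p was 0.0894 in limma.

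In 4 others a retained form was seen in the DHT libraries and listed at 0 in all 3 oil libraries. These 4 met the rule of both forms above 0 only through DHT libraries, so their lack of overlap is not independent of that rule. Wipi2, an autophagy protein, had 1.06, 1.12 and 0.796 FPKM of the retained form in DHT libraries. Papola, the main nuclear poly(A) polymerase, had 0.428, 0.563 and 0.9 FPKM. Kif21b, a kinesin, had 1.01, 0.593 and 0.595 FPKM. The fourth pair is listed under Ptk2 but lies within the RefSeq bounds of Ago2, the Argonaute of RNA silencing, and had 0.591, 1.06 and 0.626 FPKM. Kmt5c, a histone methyltransferase, had 0.949, 1.07 and 0.574 FPKM under DHT, against 0, 0 and 0.276 FPKM under oil. The spliced forms of Wipi2, Papola, Kif21b and the Ptk2 pair were present in all 6 libraries at 3.83 FPKM or more. Adjusted p ran from 0.517 to 0.757 over these 5 pairs in limma, so none could be separated from the spread over libraries.

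**Figure D4:**
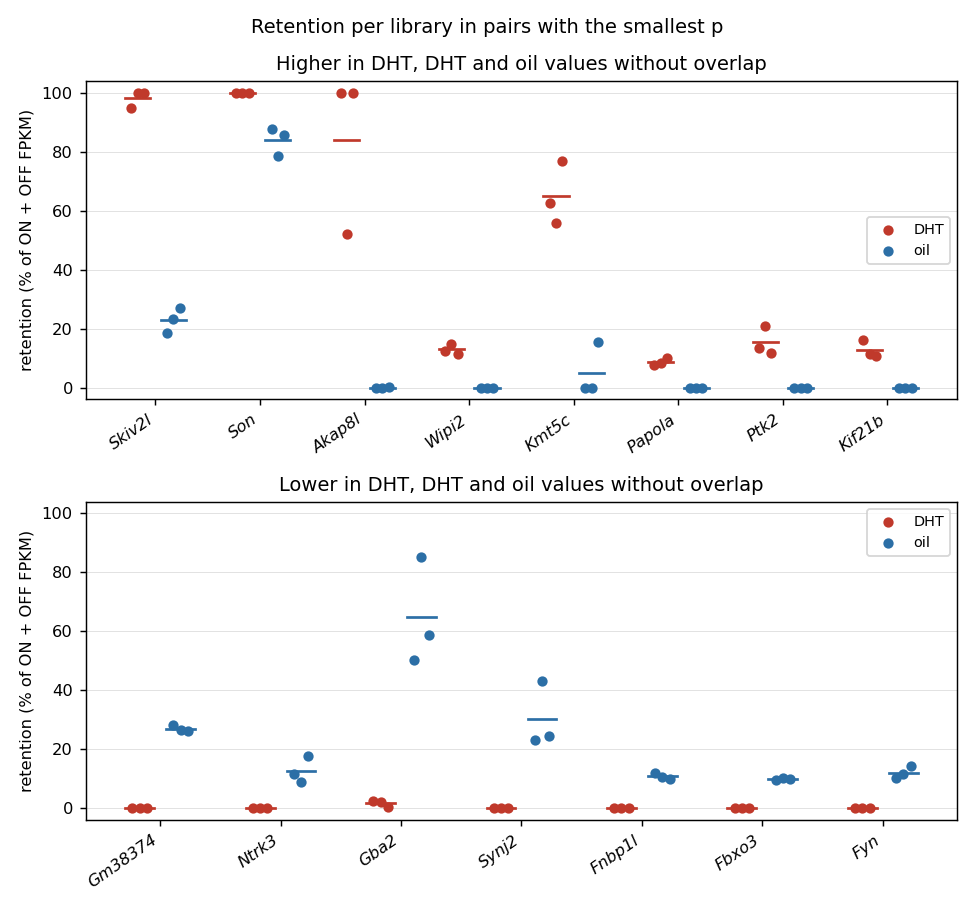
Retention per library (points, %) with group means (lines) for 15 of the 16 pairs with the smallest p among those whose groups did not overlap, DHT in red left of oil in blue. Upper panel, DHT above oil; lower panel, DHT below oil. Skiv2l lay at 95.0 to 99.9% under DHT, against 18.6 to 26.9% under oil.

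The 8 pairs with DHT below oil were led by a pair listed under Gm38374, which lies within the RefSeq bounds of Trip12, a ubiquitin ligase gene (chr1:84725831-84726202, minus). Its retained form was listed at 0 in the DHT libraries and at 3.5, 3.65 and 3.44 FPKM under oil. It thus met the rule of both forms above 0 only through oil libraries. The spliced form was alike, at 10.04, 12.1 and 8.62 FPKM under DHT, against 8.97, 10.2 and 9.77 FPKM under oil. The limma adjusted p was 0.0894. Gba2, a glucosylceramidase outside the lysosome, had both forms in every library. Its intron of 155 nt (chr4:43570191-43570345, minus) was retained at 0.145, 0.124 and 0.0434 FPKM under DHT, against 3.9, 5.26 and 3.69 FPKM under oil. The spliced form was 5.52, 6.1 and 7.97 FPKM under DHT, against 3.89, 0.903 and 2.58 FPKM under oil. Its log2 change was -4.36 ± 0.597 (SE), with an adjusted p of 0.338.

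Another 5 pairs were listed at 0 for the retained form in all 3 DHT libraries. These 5 met the rule of both forms above 0 only through oil libraries, so their lack of overlap is not independent of that rule. Ntrk3, a neurotrophin receptor, had 1.81, 1.88 and 3.86 FPKM of the retained form under oil. Synj2, an inositol phosphatase of vesicle traffic, had 1.6, 5.05 and 1.66 FPKM. Fyn, a Src-family kinase, had 0.743, 0.841 and 0.811 FPKM, and retention lay between 10.1 and 14.1% under oil. The membrane-bending gene Fnbp1l and the ubiquitin ligase subunit Fbxo3 had 0.854 to 1.08 and 0.642 to 0.81 FPKM under oil. Adjusted p for these 5 ran from 0.26 to 0.535 in limma. Such pairs rest on retained forms of 0.642 to 5.05 FPKM in 1 group and 0 in the other.

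Akap8l, which encodes a nuclear kinase anchor protein, shows how a shared intron affects these ratios. Its pairs were looked at after their values were seen. An intron of 866 nt (chr17:32334697-32335562, minus) is listed in 6 pairs, and a single-intron and a multi-intron pair share the same retained form. That form stood at 0.00764, 3.11 and 7.5e-05 FPKM under DHT, against 1.8e-05, 6.5e-05 and 0.000361 FPKM under oil. The spliced form of the single-intron pair was 5.18, 2.84 and 3.26 FPKM in DHT libraries and near 0 in oil libraries (1.8e-05 to 0.000328 FPKM). The spliced form of the multi-intron pair was 0, 2.85 and 0 FPKM under DHT, against 3.51, 2.21 and 5.25 FPKM under oil. The same retained form thus gave retention of 84.1% under DHT, against 0.00344% under oil for the multi-intron pair, and of 17.5% under DHT, against 50.8% under oil for the single-intron pair, as group means. In both the difference was between spliced forms, and adjusted p was 0.26 and 0.911 in limma.

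The total of both forms was tested in the same way, to separate the level of the event from its retention. limma called 0 of 8281 members and 2 of all 23866 pairs (0.00838%). The smallest adjusted p of a member was 0.111, for the single-intron Akap8l pair (log2 change 3.37 ± 0.288 SE). At an unadjusted p under 0.05 there were 498 members (6.01%, against 6.39% of all pairs), of which 365 had DHT above oil (4.41%, against 4.63%) and 133 below (1.61%, against 1.76%). With each library centred on its median, 198 of 405 such members had DHT above oil, so the split depends on the scaling. The log2 change was above 0 in 62.3% of members and 60.7% of all pairs. Ppp1r10, a nuclear phosphatase regulator, had a spliced form of 6.3, 7.12 and 6.25 FPKM under DHT, against 3.41, 3.4 and 2.51 FPKM under oil, at an adjusted p of 0.52. Fcho1, an endocytosis gene, had 10.4, 8.44 and 10.02 FPKM under DHT, against 4.68, 4.98 and 4.09 FPKM under oil (adjusted p 0.546). Apc, the Wnt pathway scaffold, had 12.4, 4.04 and 4.64 FPKM of retained form in DHT libraries and was listed at 0 in oil libraries (adjusted p 0.56).

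The 6 largest retained forms were those of Actb, Hsp90ab1, Calm2, Bsg, Mir770 and Eno2, and 3 of them had almost no spliced form. Actb, beta-actin, had 202, 299.997 and 279 FPKM under DHT, against 256, 217 and 249 FPKM under oil over a segment of 150 nt, with a spliced form above 0 in 1 library only (0.0047 FPKM). Hsp90ab1, a chaperone, had 119 to 148 FPKM over a segment of 37 nt, beside at most 0.0228 FPKM of spliced form. Bsg, basigin, had 39.7 to 70.9 FPKM over 115 nt, beside at most 0.26 FPKM. A further 2 pairs of at least 5 FPKM had the same shape, Enpp5 over 163 nt and the roquin-family gene Rc3h2 over 82 nt. Whether these segments are annotated exons was not tested. The Mir770 pair, within the RefSeq bounds of the lncRNA Meg3, had 20.04, 35.3 and 105 FPKM of retained form under DHT, against 29.0, 20.2 and 82.9 FPKM under oil, and its spliced form was above 0 in 1 oil library at 25.2 FPKM.

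Pairs with plenty of both forms were picked after their values were seen, for the size of their smaller form. Calm2, a calmodulin gene, kept an intron of 80 nt in 39.0, 36.1 and 38.5% under DHT, against 38.6, 29.4 and 39.9% under oil. Its retained form held 96.1, 86.2 and 91.3 FPKM under DHT, against 84.1, 47.1 and 95.8 FPKM under oil, and 1 oil library stood low. Rundc3a was the steadiest of the rest, at 11.6, 14.8 and 14.3% under DHT, against 15.5, 11.9 and 15.2% under oil. Aplp1, an amyloid precursor-like protein, was at 23.8, 25.3 and 26.9% under DHT, against 15.0, 12.9 and 22.9% under oil. The Aplp1 groups did not overlap, but the limma adjusted p was 0.911. Camkv, a kinase-like vesicle protein, was at 13.1, 20.2 and 15.1% under DHT, against 20.8, 18.2 and 22.6% under oil, which overlapped. Eno2, the neuronal enolase, spread from 38.1 to 71.5% in DHT and from 57.2 to 84.1% under oil. Adgrl1 spread widely as well, from 34.6 to 52.0% in DHT and from 14.1 to 64.5% under oil. Maged1 was at 8.76 to 11.6% in DHT libraries, and at 13.7, 13.3 and 64.0% under oil, where a single library stood apart.

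At the low end were pairs of at least 5 FPKM with a retained form close to 0. Sptan1, the brain spectrin, had a spliced form of 36.8 to 45.8 FPKM over the 6 libraries and a retained form of at most 0.000245 FPKM. Matk, a kinase that restrains Src-family kinases, Mcoln1, a lysosomal channel, and Arfgap1, a Golgi GTPase activator, had retained forms of at most 5.5e-05 FPKM beside 4.75 to 19.4 FPKM of spliced form. Values that small lie far under the pseudocount of 0.5 FPKM used in the test.

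Genes of the splicing machinery often carry introns that regulate their own levels, so the pairs were grouped by host gene. SR proteins and their kinases, which bind exons and direct splice sites, had 82 pairs in 23 of 29 genes, with a median retention of 18.7%. The hnRNP list had 34 pairs in 12 of 27 genes, with a median of 19.98%. The minor spliceosome, which removes a rare class of introns, had 5 pairs in 4 of 11 genes, with a median of 21.4%. Neuronal splicing regulators had 28 pairs with a median of 11.03%, decay factors 28 with 7.46%, neuronal genes with known retained introns 20 with 7.22%, and core spliceosome genes 49 with 6.79%. These are medians of each pair's mean over the libraries, and the median over all 8281 members was 4.96%. None of these lists had a called pair, and the smallest adjusted p in any was that of Son.

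**Figure D5:**
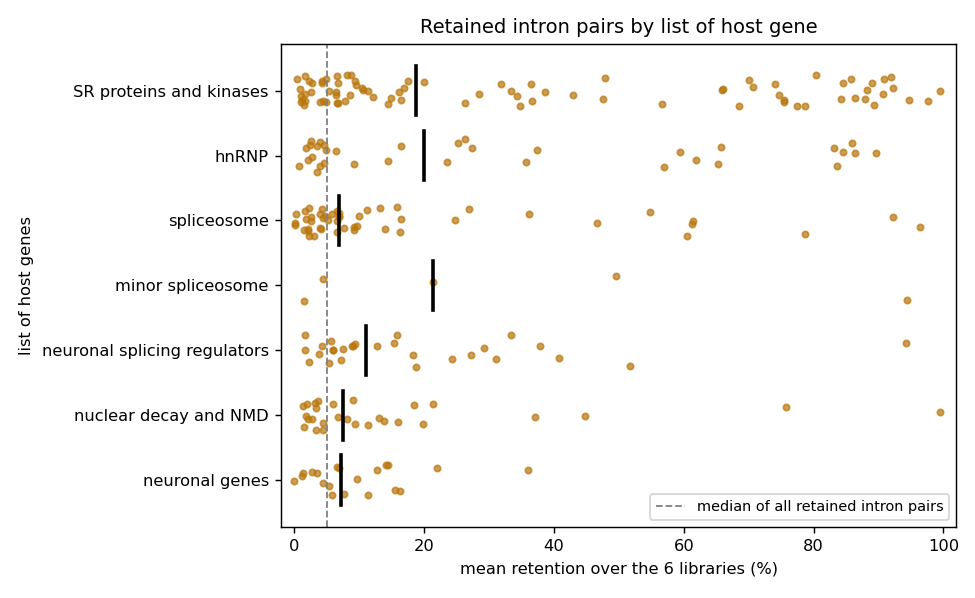
Mean retention over 6 libraries (horizontal axis, %) of each retained intron pair (points) by list of host gene, with the list's median (black line) and the median of all 8281 pairs (dashed line, 4.96%). SR proteins and kinases had a median of 18.7% and the hnRNP list 19.98%.

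Among SR proteins and kinases, 37 pairs had a log2 change above 0 and 45 below 0, with a median of -0.25 beside -0.09 over all members. At an unadjusted p under 0.05 there were 2 of 82 above and 4 below, beside 2.25% and 2.53% of all pairs. Neuronal splicing regulators had 7 pairs above 0 and 21 below (median -0.81), and neuronal genes with known retained introns 6 and 14 (median -0.42). The hnRNP list had 16 and 18, the minor spliceosome 2 and 3, core spliceosome genes 26 and 23, and decay factors 15 and 13. Over all members, 43.6% were above 0. The Clk kinases, which phosphorylate SR proteins, are a textbook case of retained introns. The single-intron Clk1 pair (1349 nt) had 0.379, 3.37 and 2.83 FPKM of retained form under DHT, against 0.805, 0.77 and 2.66 FPKM under oil. Its mean retention was 36.5%, with a log2 change of 1.89 and a p of 0.166 in limma. A multi-intron Clk1 pair of the same span shares the retained form, with a log2 change of -0.41 and a p of 0.611 in limma. The Clk4 multi-intron pair (1537 nt) had 2.02, 2.39 and 1.35 FPKM under DHT, against 3.08, 2.87 and 3.03 FPKM under oil, with mean retention of 80.4%. Here the retained forms did not overlap, but the p of the ratio was 0.243. Rsrp1, an arginine- and serine-rich protein, varied widely between replicates, with 0.177, 0.487 and 23.7 FPKM under DHT, against 5.93, 4.09 and 18.6 FPKM under oil. Srrm2, a large speckle protein, had 3.17, 0 and 0 FPKM under DHT, against 0, 4.68 and 0 FPKM under oil.

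In the hnRNP list, Ddx5, an RNA helicase, had a low and steady retention of 1.07, 0.587 and 0.78% under DHT, against 0.642, 0.566 and 0.708% under oil. For 2 neighbouring introns of the related helicase Ddx17, the retained form was above 0 in 1 DHT library only, at a shared value of 5.78 FPKM. Hnrnph1 held a pair of 197 nt with a retained form of 0.024, 0.132 and 0.022 FPKM under DHT, against 0.738, 0.0782 and 2.2 FPKM under oil. The spliced form of that pair was 10.5, 16.1 and 20.5 FPKM under DHT, against 0.0495, 13.7 and 1.31 FPKM under oil. Its unadjusted p was 0.04 in limma (adjusted p 0.911), and the values overlapped. A multi-intron Hnrnph1 pair of 2572 nt had an unadjusted p of 0.0327, and a single-intron pair of the same span 0.274. Both had an adjusted p of 0.911 in limma and overlapping retention.

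In the core spliceosome, Prpf8, the scaffold of the catalytic centre, had 3 pairs above the rest in level. Each had a retained form in at most 1 library of a group: at 1.72, 2.62 and 2.65 FPKM in the third oil library, and for the second of these introns also at 2.27 FPKM in the first DHT library. Snrnp70, the protein of the snRNP that binds the 5′ splice site, had 0.0541, 0.205 and 7.34 FPKM under DHT, against 3.04, 7.48 and 7.86 FPKM under oil. Its single-intron pair of 1006 nt had an unadjusted p of 0.133 in limma. A second single-intron pair, of 2306 nt, shares that retained form, and its retention was 5.16, 2.57 and 61.8% under DHT, against 81.5, 64.8 and 64.1% under oil. Retention did not overlap in that pair, at an unadjusted p of 0.0489 and an adjusted p of 0.911 in limma. Prpf39 kept an intron of 648 nt, in its single-intron pair, at a mean of 61.2%, with 2.3, 1.71 and 2.51 FPKM under DHT, against 2.21, 1.38 and 3.4 FPKM under oil. A multi-intron pair of the same segment shares that retained form, with mean retention of 92.3%. The Prpf39 circle of type exon has the same ends as this segment. In the minor spliceosome list, Scnm1 had 0.449, 1.08 and 1.72 FPKM under DHT, against 1.16, 0.814 and 0.116 FPKM under oil for its intron of 269 nt. Rnpc3 had 0.199, 1.36 and 3.47 FPKM under DHT, against 3.07, 1.93 and 2.6 FPKM under oil. The retained forms of the groups overlapped in Snrnp70, Prpf39, Scnm1 and Rnpc3.

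Among neuronal splicing regulators, Celf5 kept an intron of 548 nt at 13.6, 22.2 and 27.5% under DHT, against 12.7, 22.7 and 13.2% under oil. A second Celf5 pair, of 551 nt, shares that retained form. Its mean retention was 94.2%, against 18.7% for the pair of 548 nt. Celf2 had 0.0623, 0.0189 and 3.93 FPKM of retained form in DHT and at most 0.0488 FPKM under oil, and Mbnl2 had it in 1 oil library, at 2.54 FPKM. Of the decay factors, Smg1, of nonsense-mediated decay, had 5 pairs. The one named by level, of 652 nt, had a retained form in 1 library of each group. Its multi-intron pair of 319 nt had it in all 6 libraries, at 1.58, 2.91 and 3.21 FPKM under DHT, against 3.61, 4.39 and 1.45 FPKM under oil, with mean retention of 44.8%. A pair of 420 nt listed under Casc3, within the RefSeq bounds of Msl1, had it in 1 DHT library, at 1.33 FPKM. Among neuronal genes, Ogt, the enzyme that adds O-GlcNAc and is regulated by a retained intron, was at 30.4, 22.5 and 0% under DHT, against 29.3, 22.2 and 27.3% under oil. Gabbr1, a GABA-B receptor subunit, had 21.0 FPKM of retained form in the third oil library and 0 in all others. Camk2b, a synaptic kinase subunit, had at most 0.00276 FPKM beside 42.5 to 82.5 FPKM of spliced form. The Nup98 intron, in a nuclear pore gene, was at 18.8, 13.0 and 9.36% under DHT, against 11.9, 0 and 23.3% under oil, with an adjusted p of 0.936 in limma.

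The members carried 3666 gene symbols, and the 4 with the most pairs are described here. Pkd1, polycystin, had 42 pairs at 30 positions, with mean retention of 0.742 to 98.7% and a median of 12.2%. Bin1, an amphiphysin-family gene, had 36 pairs with a median of 13.4%. Entr1, an endosome gene, had 28 with a median of 71.0%, and Dgkq, a diacylglycerol kinase, 25 with a median of 4.87%. In Pkd1, DHT retention was above oil without overlap in 1 of 42 pairs and below it in 4, beside 2.78% and 3.13% of all pairs. The smallest adjusted p in these 4 genes was 0.88. The 28 Entr1 pairs lay at 16 positions, and 1 had DHT above oil without overlap and 0 below. At an unadjusted limma p under 0.05 were 5 of 28 pairs in Entr1, 2 of 42 in Pkd1, 0 of 36 in Bin1 and 2 of 25 in Dgkq, beside 4.79% of all pairs. In Entr1 the pair picked for the smallest p, a 380-nt intron, averaged 99.999% under DHT, against 35.4% under oil, at an unadjusted p of 0.00581 in limma.

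Levels of the splicing and decay genes themselves were compared as context, with the larger of the first-exon and last-exon sums of a locus as the gene value. limma called 0 of 134 genes in the 6 lists and 2 of 11361 genes in all (0.0176%). At an unadjusted p under 0.05 there were 8 of 134, and 7.34% of all genes. Of the SR and kinase genes 11 had a log2 change above 0 and 16 below, of the hnRNP genes 10 and 13, and of the core spliceosome genes 24 and 14, while 63.6% of all genes were above 0. Tardbp, the RNA-binding protein TDP-43, had 7.34, 9.58 and 6.85 FPKM under DHT, against 12.3, 12.8 and 14.0 FPKM under oil, without overlap. Its log2 change was -0.70 ± 0.143 (SE), with a limma adjusted p of 0.653, and -1.50 with last-exon sums alone. Hnrnpa3 had 7.12, 3.99 and 7.66 FPKM under DHT, against 3.88, 1.75 and 3.11 FPKM under oil. Clk4 had 6.36, 6.31 and 4.16 FPKM under DHT, against 8.78, 6.65 and 8.08 FPKM under oil, and Srpk1, an SR protein kinase, 8.24, 5.9 and 7.36 FPKM under DHT, against 6.94, 3.85 and 3.65 FPKM under oil. Srrm3, a neuronal microexon regulator, had 7.35, 6.2 and 7.22 FPKM under DHT, against 5.8, 5.05 and 5.16 FPKM under oil. Rnpc3 had 1.29, 2.75 and 3.68 FPKM under DHT, against 4.06, 4.63 and 4.56 FPKM under oil. The groups also did not overlap in Hnrnpa3, Clk4, Srrm3 and Rnpc3, and they overlapped in Srpk1. All were named for a small p, and the share of all genes without overlap was not counted. Adjusted p was 0.653 to 0.659 for these 6 genes in limma. With last-exon sums alone the log2 change was 0.43 in place of 0.99 for Hnrnpa3, -0.17 in place of -0.46 for Clk4 and -0.26 in place of -0.76 for Rnpc3.

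In the same fit, the core spliceosome genes Eftud2 (5.75 ± 0.552 FPKM in DHT, 7.34 ± 0.924 FPKM under oil) and Sf3b4 (6.16 ± 0.423 FPKM in DHT, 5.05 ± 0.382 FPKM under oil) lay in opposite directions (SD, n = 3 each). Scnm1 averaged 4.61 ± 1.24 FPKM under DHT, against 3.84 ± 0.0247 FPKM under oil, and the polypyrimidine tract protein Ptbp1 2.66 ± 0.173 FPKM under DHT, against 3.04 ± 0.297 FPKM under oil. Both of these directions turn with last-exon sums alone, to -0.36 for Scnm1 and 0.96 for Ptbp1 on the log2 scale. The exosome nuclease Exosc10 and the decay helicase Upf1 averaged 5.51 ± 0.236 and 8.03 ± 0.334 FPKM in DHT, and 4.67 ± 0.446 and 7.04 ± 0.52 FPKM under oil. Adjusted p was 0.659 to 0.766 for these 6 genes in limma.

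The limit of 1 FPKM falls within a continuous range. Just inside it, Spg11 averaged 1.00023 FPKM, Srsf10 1.00028 and Thbs3 1.00076. Just outside it, Vip averaged 0.999834, Klhl29 0.999655 and Brd9 0.999318. Retention in these ran from 7.8 to 84.6% inside and from 2.2 to 85.9% outside.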

How the data were processed

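Each library has a deposited table of FPKM values, made by the authors for 315379 first-exon, last-exon and splicing events, per the file headers. The tables of the 6 libraries list the same events. The submitters' processing notes name bcl2fastq 2.17.1.14, cutadapt, HISAT2 2.0.1, BWA and the build mm9 without roles. Which tool made the events is not given in the sources used, and splice sites read from RefSeq put the coordinates on GRCm38. Junction read counts per circular RNA, linear read counts and a score per circle (junction reads per G mapped reads, per the labels' protocols) were also deposited by the authors. Per-sample columns left unmapped numbered 0.

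The nth retained and nth spliced row of a type were paired, and gene identifier and position agreed in all pairs. Symbols were found for 99.6% of members. limma 3.58.1 (empirical Bayes with trend, R 4.3.3) tested log2 ratios and totals with a pseudocount of 0.5, over all event types, with Benjamini-Hochberg adjustment and a threshold of 0.05. Fold changes on that scale understate those of low values. Gene values needed a mean of 0.5 FPKM. Methods were tested on simulated data, drawn as normal log values with known changes added. Such values do not hold the many zeros of these libraries, so that test does not measure the power of the fits here. Tables and plots were made in Python 3.11.15 with pandas 2.3.3, matplotlib 3.10.9 and numpy 2.4.6. Other pseudocounts, minima, scalings, collapsed duplicates and left-out libraries were tried. Values of overlapping or antisense genes and of near-identical copies may be mixed.

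Members and gene lists were chosen with earlier results of these data known. Pairs were named by rule: up to 8 per direction with the smallest p among groups without overlap, the 6 largest retained forms, the 4 highest and lowest retentions at 5 FPKM or more, up to 3 pairs per gene list by level, the neighbours of the limit, Nup98 and the 4 genes with most pairs. Other named pairs were picked after their values were seen or carry a printed sequence. Some results are not reported here.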

Additional observations from a re-analysis of the deposited data

How the results depend on the processing

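The calls were counted under each alternative. Retention had 1 called member in place of 0 without a minimum level: Skiv2l, at a limma adjusted p of 0.0314, with a range of 0.0314 to 0.299 over its alternatives. The event level had 1 in place of 0 without the trend: the single-intron Akap8l pair, at 0.0346, with a range of 0.0346 to 0.518. Under every other alternative run, leaving out each library included (0 to 0), both counts were 0, and so was that of splicing genes. The cause was not tested.

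Counts at an unadjusted p under 0.05 also moved, and most of these settings changed how many members were tested. For retention, 389 of 8281 members became 607 of 11864 without a minimum and 106 of 2371 at 5 FPKM. With both forms in at least 3 libraries it was 215 of 3676, and with both in all 6 it was 78 of 1747. On the arcsine scale the count was 208 of 8204. For the event level, 498 of 8281 became 201 of 2371 at 5 FPKM. It was 219 of 3676 with both forms in at least 3 libraries and 127 of 1747 with both in all 6. With libraries centred, 170 of 365 retention pairs had DHT above oil. Without DHT replicate 1, 223 event-level pairs did, in place of 365. Among splicing genes, 3 of the 8 with p under 0.05 had DHT above oil, and this was 1 to 5 with 1 library left out: 1 without DHT replicate 1, and 5 without oil replicate 1 or oil replicate 3.

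The difference in the retained share, -0.72 points, ran from -0.963 to -0.593 with 1 library left out, and was -0.464 with both forms in all 6 libraries, an alternative chosen after seeing the data. Over 32 named results and 441 alternatives, 437 kept their direction and their side of the threshold, and the 2 named above passed it. Many of these results were picked from the same data for groups without overlap and the smallest p, which largely fixed their direction. The count is thus not a measure of robustness. The gene values of Scnm1 (-0.36) and Ptbp1 (0.96) reversed with last-exon sums only. No paired analysis was possible because the replicate numbers of the labels are not shared between groups. Depth per pair is unknown, so a form at 0 cannot be told from one below detection.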
